A study of Mus musculus with 6 samples.

Results

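Pseudouridine synthases are the enzymes that turn uridine in RNA into its isomer pseudouridine. Here 10 genes of the group were followed in mouse bone marrow cells from which mature blood lineages had been removed. The genes were Pus7, Pus7l, Pus1, Pus3, Dkc1, Trub1, Trub2, Rpusd3, Rpusd4 and Pus10. All probe sets whose current gene symbol was one of these were taken, which gave 18 of the 45037 probe sets on the array that are not controls. The group was chosen by the strain difference of Pus7 on these arrays, so the values of Pus7 are a description and carry no test here. The other 9 genes were added as genes of the same group.

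Total RNA of C57B/L6 and of B.D(Chr5) mice was hybridised to 6 Affymetrix arrays with 1 sample each, 3 per strain. All samples came from adult females between 6 and 16 weeks old, and no treatment besides the strain is named. Mature cells had been removed by sorting against blood lineage markers. The name of the B.D(Chr5) strain points to chromosome 5 and its genetic background is labelled B.D, while its donor and the extent of any segment are not described there. The replicates are called biological, without saying whether each was 1 mouse or a pool, so errors measure the spread between these samples.

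Pseudouridine keeps the pairing of uridine but bonds the base to the sugar through carbon, which stiffens the RNA backbone. Stand-alone synthases read sequence or shape in tRNA, mRNA and mitochondrial RNA. Dyskerin, the product of Dkc1, works instead inside H/ACA ribonucleoproteins, where a guide RNA chooses the uridine in ribosomal or spliceosomal RNA. In blood, inherited defects of dyskerin cause dyskeratosis congenita with bone marrow failure, those of PUS1 cause a mitochondrial myopathy with sideroblastic anaemia, and PUS7 has been tied to translation control by tRNA fragments in stem and progenitor cells.

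The 6 arrays had median signals between 65.1 and 79.5, and their correlations lay between 0.974 and 0.987 across strains and between 0.977 and 0.986 within them. Background was set on each array at the 95th percentile of its 27 bacterial controls, which lay between 21.8 and 38.0. The share of probe sets above it was 70.6%, 71.2% and 69.3% on the C57B/L6 arrays and 68.8%, 64.8% and 63.3% on the B.D(Chr5) arrays. The 3' to 5' ratio of actin ran from 1.14 to 1.21. Progenitor markers were well above background on all arrays, among them the receptor genes Kit, at 4925 ± 643 (C57B/L6) and 4559 ± 860.2 (B.D(Chr5)), and Cd34, at 3933 ± 501 and 3527 ± 376 (SD, n = 3 each). Markers of the removed lineages were also measured. On all 6 arrays, 4 of 5 T cell markers and 3 of 4 B cell markers lay above background. So did 5 of 5 myeloid markers and 2 of 3 erythroid markers.

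The promoter of Pus7 is shown because this gene differed between the strains, beside that of Pus7l, its closest relative, which did not pass the threshold. Both are the 250 bases before the annotated start in RefSeq's GRCm38.p6, which is the C57BL/6J sequence; that of B.D(Chr5) was not analysed here. Pus7 lies on the minus strand of chromosome 5 with its window at chr5:23783712-23783961, and Pus7l on the minus strand of chromosome 15 at chr15:94543508-94543757. Capitals mark matches to the E-box CACGTG, the ETS core CCGGAAG or the CCAAT box on either strand.
Pus7: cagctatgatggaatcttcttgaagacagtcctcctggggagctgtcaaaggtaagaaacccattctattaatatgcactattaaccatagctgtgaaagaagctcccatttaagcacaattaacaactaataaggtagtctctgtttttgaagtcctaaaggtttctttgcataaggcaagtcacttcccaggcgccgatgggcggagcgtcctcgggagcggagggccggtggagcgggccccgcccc
Pus7l: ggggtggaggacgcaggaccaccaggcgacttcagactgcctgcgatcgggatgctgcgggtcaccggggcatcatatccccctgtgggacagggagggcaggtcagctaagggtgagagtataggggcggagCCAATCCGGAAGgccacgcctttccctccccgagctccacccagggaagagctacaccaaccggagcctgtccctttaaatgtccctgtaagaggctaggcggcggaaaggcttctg
The Pus7 window held 0 matches to the 3 motifs and was 49.6% G and C. In the Pus7l window, a CCAAT box began 117 bases before the start and an ETS core followed it directly, 112 bases before the start. Over all 32851 promoter windows of the table, 6.02% held an E-box, 6.91% an ETS core and 33.8% a CCAAT box. All 10 genes had a window in the table. Of their 14 windows, 2 held an E-box, those of Pus3 and Rpusd4, 1 an ETS core and 6 a CCAAT box. The windows with a CCAAT box were of 5 genes. Those of Rpusd3 overlap and hold the same CCAAT box, which was counted in each. A further window of Pus7, not shown, also held 0 matches. A match or its absence says only which letters stand in these 250 bases.

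All 10 genes were detected in the marrow cells: the brightest probe set of each lay above background on all 6 arrays. Of the 18 probe sets, 17 did so, the exception being a dim second probe set of Trub1 that was above background on 5 arrays. Averaged over the arrays, the brightest probe sets ranged from 13.1 times the background level for Rpusd3 to 299 times for Dkc1. In the ranking of all probe sets by mean signal they stood between the percentiles 70.6 and 98.2. Signal depends on each probe set's own binding as well as on the transcript, so these figures place each probe set on the array and do not order the genes by abundance.

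**Figure D1:**
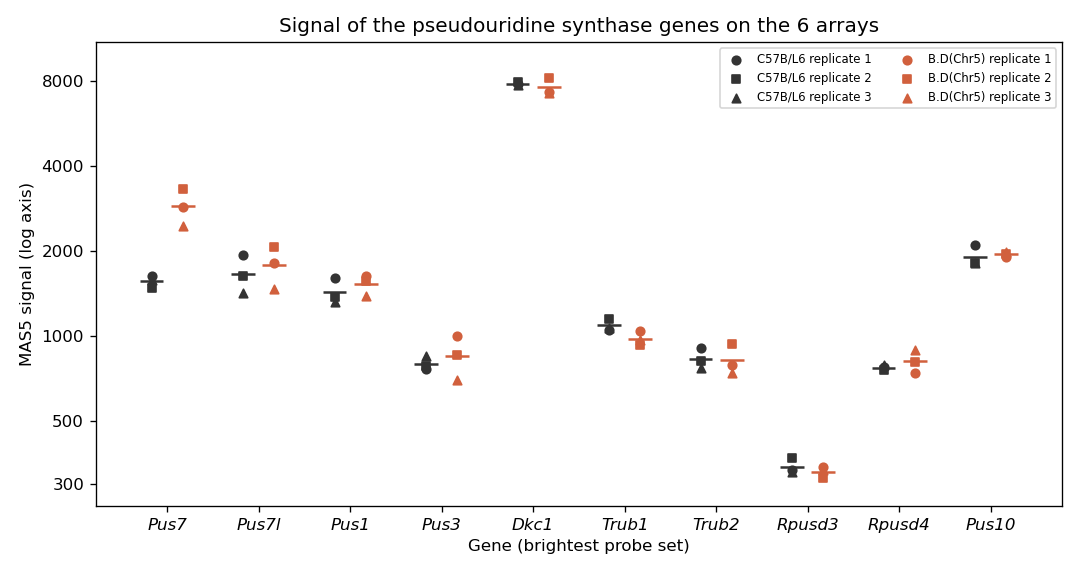
MAS5 signal (log axis) of the brightest probe set of each gene on the 6 arrays, with C57B/L6 in dark and B.D(Chr5) in orange; marker shapes give the replicate and short lines the mean of 3 arrays. For Pus7 the B.D(Chr5) arrays, from 2460.5 to 3316, all lie above the C57B/L6 arrays, from 1484 to 1638; for 8 of the other 9 genes the strains overlap, the exception being Trub1.

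Pus7 and Pus7l belong to the family named after bacterial TruD. Pus7, which modifies tRNAs and messenger RNAs at a short sequence motif, had signals of 1638, 1484 and 1579 on the C57B/L6 arrays and of 2882, 3316 and 2460.5 on the B.D(Chr5) arrays. The lowest B.D(Chr5) array was thus well above the highest C57B/L6 array. The means were 1567 ± 77.8 and 2886 ± 428 (SD, n = 3 each), a ratio of 1.84. On the scale of log2(signal + 16), on which all differences are given, Pus7 was higher by 0.86 with an SE of 0.11 and a 95% interval from 0.61 to 1.12. Pus7 had 1 probe set on the array, so no second probe set reads the same transcript. Whether strain variants in the sequence under its probes bear on this value was not tested. The call of Pus7 is likewise a description, and it hung on single arrays. It was kept without B.D(Chr5) replicate 2 or 3. It was lost without B.D(Chr5) replicate 1 or any 1 of the 3 C57B/L6 arrays, while the difference itself stayed between 0.76 and 0.97.

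Pus7l, whose product is less well characterised, had signals of 1937, 1635 and 1426 in C57B/L6 and 1819.8, 2075 and 1465 in B.D(Chr5) on its brighter probe set. The strains overlapped over almost their whole range. Its difference was 0.097 with a 95% interval from -0.23 to 0.43. The other probe set of Pus7l read 584, 672 and 556 in C57B/L6 and 655, 601 and 548 in B.D(Chr5), a difference of -0.0054.

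The TruA family was represented by Pus1, which acts on tRNAs and other RNAs in nucleus and mitochondria, and by Pus3, which modifies the anticodon arm of tRNAs. Pus1 lies on chromosome 5 as Pus7 does, with 315 tested genes between them. Its signals were 1602, 1377 and 1326 in C57B/L6 and 1632, 1573 and 1383 in B.D(Chr5), so the strains overlapped. The difference was 0.092 with a 95% interval from -0.15 to 0.33. Pus3 read 766, 782 and 848 in C57B/L6 and 998, 859 and 701 in B.D(Chr5) on its brightest probe set, with the highest and the lowest value both in B.D(Chr5). That gave a difference of 0.079 and a 95% interval from -0.22 to 0.38. A dimmer probe set of Pus3 had a difference of -0.12, with B.D(Chr5) signals that ran from 90.6 to 193, and the dimmest, at 45.4 to 78.5 over all arrays, was below the limit for testing.

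The TruB family comprised Dkc1, Trub1 and Trub2. Dkc1, the catalytic subunit of the H/ACA particles and a part of telomerase, had signals of 7858, 7975 and 7760.3 in C57B/L6 and 7348, 8239.8 and 7280.3 in B.D(Chr5) on its brightest probe set. The C57B/L6 values lay inside the range of the B.D(Chr5) values. The difference was -0.047 with an SE of 0.072 and a 95% interval from -0.21 to 0.11, the narrowest of the group. The other probe sets of Dkc1 gave differences of 0.0082 and 0.067, and 2 of the 3 carry the same source accession.

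Trub1, which modifies the T arm of tRNAs and some messenger RNAs, had signals of 1056, 1155 and 1067 in C57B/L6 and 1039.7, 933 and 970.45 in B.D(Chr5). It was the 1 gene besides Pus7 whose strains did not overlap on a tested probe set, and it lay on the lower side. Its difference of -0.15 had a 95% interval from -0.37 to 0.059 and did not pass the threshold. The dim second probe set of Trub1, with signals between 24.8 and 39.5, went the other way by 0.16 and was not tested. Trub2, whose product acts in mitochondria, had 3 tested probe sets with 1 source accession, with differences of -0.016, 0.15 and -0.16. The strains overlapped on each of them.

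Rpusd3 and Rpusd4, of the RluA family, act on mitochondrial RNA. Rpusd3 had signals of 335, 369 and 329.9 in C57B/L6 and 343, 314 and 337 in B.D(Chr5), a difference of -0.053 with a 95% interval from -0.34 to 0.23. Rpusd4 had signals of 776, 758 and 788 in C57B/L6 and 743, 812 and 895 in B.D(Chr5), a difference of 0.072 with a 95% interval from -0.16 to 0.31. The strains overlapped for both genes. Pus10, which forms a family of its own and acts on tRNAs, read 2111, 1815 and 1819 in C57B/L6 and 1911, 1954 and 1992 in B.D(Chr5). Its C57B/L6 arrays spanned the B.D(Chr5) arrays on both sides, and the difference was 0.031 with a 95% interval from -0.17 to 0.23.

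The higher signal of Pus7 in B.D(Chr5) was therefore not matched by a called difference in any of the other 9 genes. Of their 15 tested probe sets, 0 passed limma at an adjusted p of 0.05 and 0 had an unadjusted p under 0.05, against 0.182% called and 1069 at that unadjusted level among all 22518 probe sets tested. The contrast is the one that chose the group, so these counts describe its members. Over the brightest probe sets, 5 of the 9 differences were positive and 4 negative, from -0.15 to 0.097 with a median of 0.031, where all tested probe sets had a median of 0.0003. The median of the 9 turned negative without C57B/L6 replicate 2 (-0.0047), C57B/L6 replicate 3 (-0.0086) or B.D(Chr5) replicate 2 (-0.017). Leaving out any 1 of the other 3 arrays gave medians between 0.010 and 0.050. The upper ends of their 95% intervals lay between 0.059 and 0.43. Among all 15 tested probe sets the highest upper end was 0.65, for the probe set of Trub2 whose B.D(Chr5) signals ran from 419 to 843. The lower ends reached down to -0.68, for the dimmer tested probe set of Pus3. With 3 arrays per strain, a change in either direction that lies inside a probe set's interval is not excluded. The strains did not overlap on 1 of the 15 probe sets, that of Trub1, and on 9.4% of all tested probe sets.

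**Figure D2:**
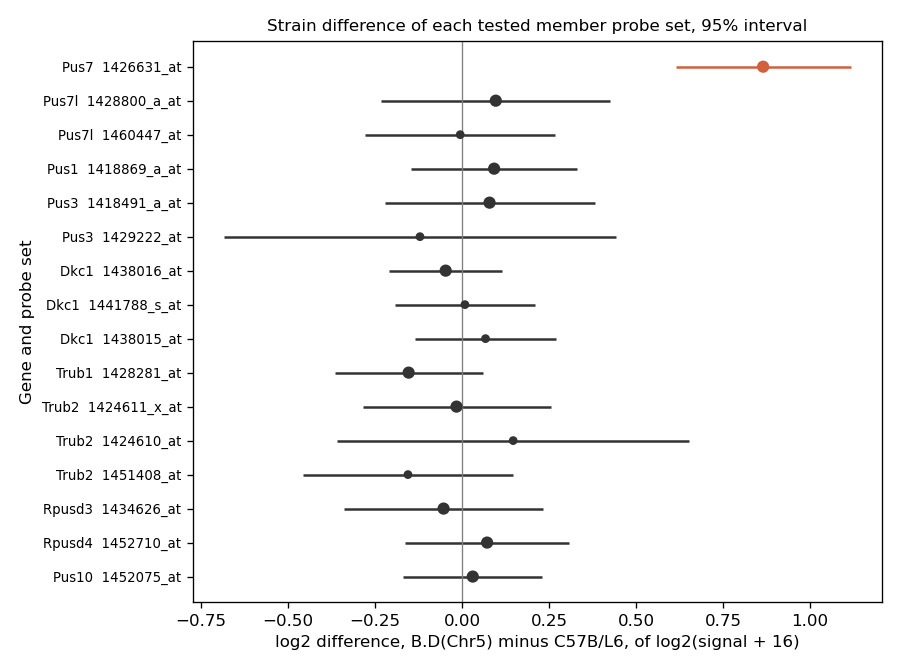
Difference between the strains, B.D(Chr5) minus C57B/L6, of log2(signal + 16) for the 16 tested probe sets of the 10 genes, with 95% intervals from limma; large points are the brightest probe set of a gene and Pus7 is orange. The interval of Pus7 runs from 0.61 to 1.12, and those of the other 15 probe sets all include 0.

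Replicates of a strain agreed closely for most of these genes. The coefficient of variation within strains had a median of 9.41% over the 15 tested probe sets of the other genes, from 5.06% for Dkc1 to 25.8% for the dimmer tested probe set of Pus3, and was 11.0% for Pus7. Over all tested probe sets its median was 12.5%. B.D(Chr5) replicate 3 was the lowest of its strain on 11 of the 16 tested probe sets of the group (68.8%), against 33.9% of all tested probe sets. C57B/L6 replicate 3 was the lowest of its strain on 9 of the 16 (56.2%), against 33.5% of all. Pus7 shared the first pattern, with its lowest B.D(Chr5) signal on replicate 3, and its lowest C57B/L6 signal was on replicate 2. Probe sets of 1 gene share a transcript, so these counts are not over independent values.

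Of 3 further genes of the same families, Rpusd1 and Rpusd2 had probe sets and Pusl1 had none with 1 symbol. Rpusd1 had signals of 322, 328 and 245 in C57B/L6 and 342, 343 and 396 in B.D(Chr5), so its strains did not overlap, but the lowest B.D(Chr5) array was only slightly above the highest C57B/L6 array. Its difference of 0.27 had a 95% interval from -0.077 to 0.61 and did not pass (limma adjusted p = 1.00). Rpusd2 had a difference of 0.038 on its brightest probe set, and those of its 3 other tested probe sets lay between -0.17 and 0.25. The strains overlapped on all 4.

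Partners of dyskerin were counted next. Of 10 tested genes of the H/ACA particles and their assembly, 0 were called, 3 were positive and 7 negative, with a median of -0.012. Calls were rare on the whole array, with a called probe set in 0.223% of all tested genes, so 0 calls in a short list says little about it. The core subunit genes Nop10, Nhp2 and Gar1 had differences of -0.066, -0.0045 and -0.15. Nop10 read 17430.2 ± 1640.3 against 16670.2 ± 1834 in the order of C57B/L6 and B.D(Chr5), and Gar1 read 4789 ± 516 and 4322 ± 385 (SD, n = 3 each). The genes of smallest unadjusted p were Shq1, which encodes a chaperone of dyskerin, at -0.27, and Gar1. Tert, the catalytic subunit of telomerase, was too dim to be tested and lay above background on 4 arrays; it was chosen for mention after its values were seen.

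Other enzymes that modify tRNA had 0 calls as well. Of 42 tested genes, 15 were positive and 27 negative, from -0.28 to 0.18 with a median of -0.023. The 2 of smallest unadjusted p were both lower in B.D(Chr5). Ctu2, which thiolates the wobble uridine of some tRNAs, read 2625, 2730.1 and 2810.4 in C57B/L6 and 2248, 2474 and 2022 in B.D(Chr5), a difference of -0.28. Trmt1, a guanosine methyltransferase of tRNA, read 2323, 2402 and 2559 in C57B/L6 and 2083, 2176 and 1996 in B.D(Chr5), a difference of -0.22. Neither strain's arrays overlapped the other's in these genes, and neither gene passed (limma adjusted p = 0.850 and 0.920). The strains did not overlap for 6 of the 42, against 9.4% of all tested probe sets. Of 12 tested genes of box C/D particles and ribosomal RNA processing, 0 were called, with a median of -0.0057. The 2 of smallest unadjusted p were Dimt1, a ribosomal RNA dimethyltransferase gene, at 0.11, and Nop2, a ribosomal RNA methyltransferase gene, at -0.095 (limma adjusted p = 1.00 for both). Among bright members, Fbl had 0.031 and the nucleolin gene Ncl -0.0035. In the 3 lists with 0 calls, the counts at an unadjusted p under 0.05 were 0 for the H/ACA genes, 2 for the tRNA enzymes and 0 for the box C/D genes. Among all 22518 tested probe sets, 1069 were at that level. The medians of the 3 lists changed sign when single arrays were left out, from -0.077 to 0.022 for the H/ACA genes (positive without C57B/L6 replicate 1 or B.D(Chr5) replicate 3), from -0.061 to 0.0033 for the tRNA enzymes (positive without the same arrays) and from -0.053 to 0.051 for the box C/D genes (negative without C57B/L6 replicate 3 or B.D(Chr5) replicate 2).

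**Figure D3:**
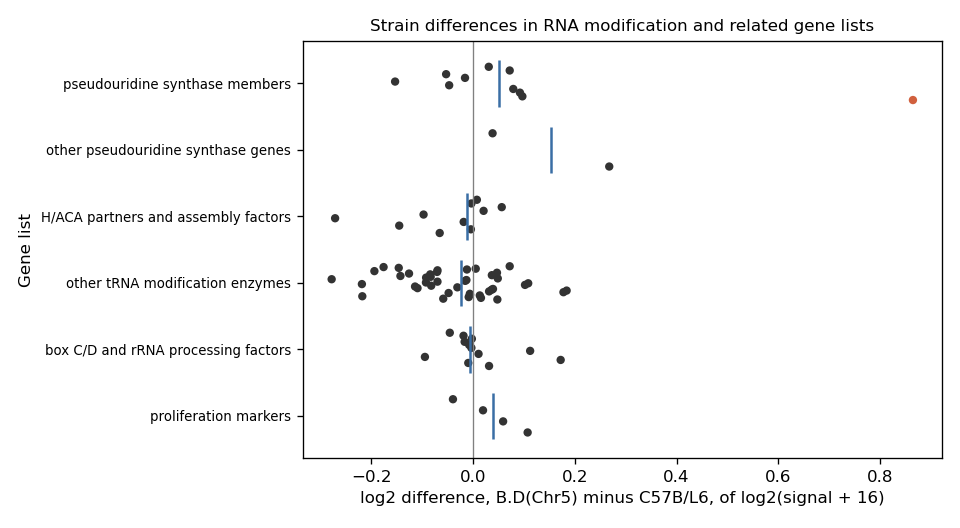
Difference between the strains of the brightest probe set of each tested gene, by list, on the scale of log2(signal + 16); blue lines are list medians and Pus7 is orange. Pus7 stands at 0.86, while all other plotted genes lie between -0.28 and 0.27.

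Markers of other cells differed in level between the strains in part, with 0 calls. The summed signal of the 5 measured myeloid markers ran from 39368.5 to 43696 on the C57B/L6 arrays and from 47149.6 to 64068.5 on the B.D(Chr5) arrays. For 4 of the 5 the strains did not overlap, with B.D(Chr5) higher, and for Itgam they overlapped. Of all tested probe sets, 9.4% did not overlap in either direction. All 5 markers were positive, with a median of 0.37, and the granule genes Camp and Ngp had 0.65 and 0.45. Leaving out B.D(Chr5) replicate 3 lowered that median to 0.17, and leaving out replicate 2 of the same strain raised it to 0.56. The 4 measured B cell markers summed to 1425, 1668 and 1724 on the C57B/L6 arrays and to 2106, 1544 and 4293 on the B.D(Chr5) arrays, the last being replicate 3. Their 3 tested genes were all positive, Ms4a1 at 0.99, Cd79a at 0.68 and Cd79b at 0.42, and the median of 0.68 was 0.31 without B.D(Chr5) replicate 3. The fourth, Cr2, was too dim to be tested.

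The 6 measured progenitor markers summed to between 28531 and 32623 in C57B/L6 and between 27155 and 33143 in B.D(Chr5). Of them 5 were negative, with a median of -0.14, which was -0.080 without C57B/L6 replicate 3 and -0.22 without C57B/L6 replicate 2. The homeobox gene Meis1 read 1109 ± 159 and 827 ± 72.4 (SD, n = 3 each, C57B/L6 first), without overlap, a difference of -0.41 that did not pass (limma adjusted p = 0.746), and the receptor gene Flt3 had -0.29. The 5 measured T cell markers summed to between 474 and 694 in C57B/L6 and between 379 and 580 in B.D(Chr5). No NK marker was measured, since the listed gene Klrb1c had no probe set with 1 symbol. Cd4 was at or below background on all 6 arrays. Of the 3 tested genes, Cd3g and Cd3e, of the T cell receptor complex, had -0.56 and -0.24, and Cd8a had 0.24. The strains overlapped for Cd3e and Cd8a. They did not overlap for Cd3g, which did not pass (limma adjusted p = 0.905). Without B.D(Chr5) replicate 2 the median of this list was 0.0005 instead of -0.24. The 3 measured erythroid markers summed to between 904 and 1769.6 and between 774 and 1669.6, and the 4 proliferation markers, among them Mki67 and Top2a, summed to between 43344 and 46415 and between 45215 and 47271. Tested were 6 progenitor, 3 T cell, 3 B cell, 5 myeloid, 2 erythroid and 4 proliferation genes. Of the tested genes of these 6 lists, 0 were called by limma and 6 had an unadjusted p under 0.05. Among all 22518 tested probe sets, 1069 had an unadjusted limma p under 0.05, and 0.223% of all tested genes had a called probe set. In bulk RNA, more cells of a type and more RNA per cell cannot be told apart, and the part of these shifts in the value of Pus7 was not tested.

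Around Pus7 on chromosome 5, the neighbours differed in both directions. Of the 10 tested genes on each side, 8 were positive and 12 negative, with a median of -0.058. The nearest tested gene on one side, AI506816, which lies on the same strand beyond the end of Pus7 in the RefSeq annotation, read 40.8, 41.9 and 32.1 in C57B/L6 and 1630.4, 2316 and 1788 in B.D(Chr5), a difference of 5.14 (limma adjusted p = 3.66e-07). As for Pus7, B.D(Chr5) replicate 2 was the highest of its arrays. On the other side of Pus7, Rint1, which acts in vesicle transport, read 319, 359 and 313 in C57B/L6 and 229, 252 and 251 in B.D(Chr5). It went the opposite way, with a difference of -0.41 that did not pass (limma adjusted p = 0.861).

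Among the remaining neighbours, Atg9b, an autophagy gene, had the largest positive value of 0.93 with signals of 115, 112 and 100.1 in C57B/L6 and 237, 237 and 196 in B.D(Chr5), and did not pass (limma adjusted p = 0.155). On the negative side, 2700038G22Rik read 757, 742 and 701 in C57B/L6 and 474, 514 and 414 in B.D(Chr5), a difference of -0.64 that did not pass either (limma adjusted p = 0.157), and 5031425E22Rik had -0.47. These 3 genes were chosen for mention after their values were seen. Of the 20 neighbours, the strains did not overlap for 2 that were higher and 4 that were lower, against 9.4% of all tested probe sets. The ribosome-associated chaperone gene Dnajc2 was the second neighbour with a call besides AI506816, on a probe set that was lower in B.D(Chr5), while its brightest probe set had a difference of -0.071. The other probe sets of the neighbours were not called. At the level of genes, 0.223% of all tested genes had a called probe set.

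**Figure D4:**
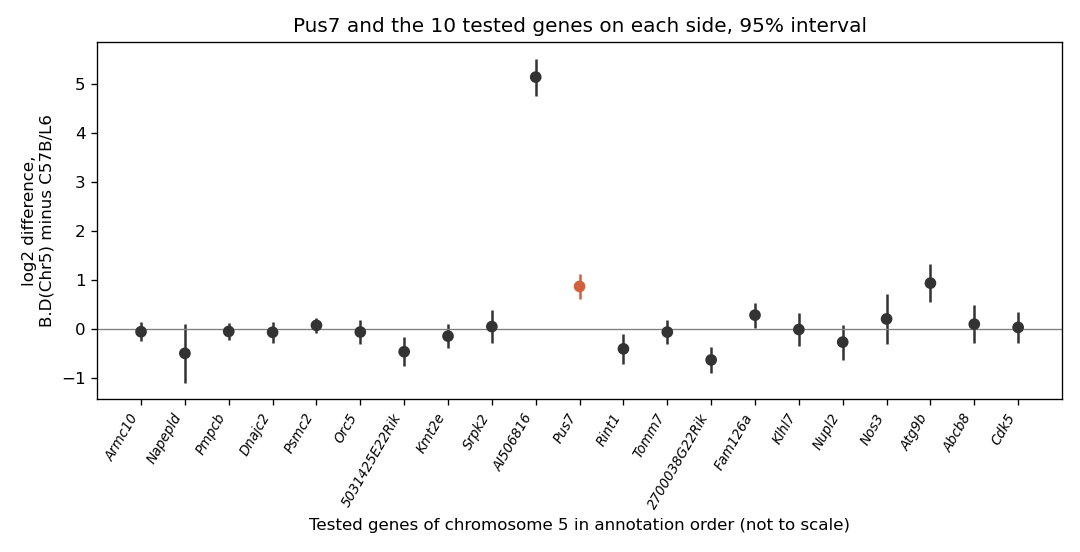
Difference between the strains, with 95% interval, of Pus7 (orange) and the 10 tested genes on each side in annotation order, brightest probe set each. AI506816, next to Pus7, stands at 5.14 and Rint1, on its other side, at -0.41.

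Of all tested genes with 1 symbol, the 5 whose log2 signal followed that of Pus7 most closely over the 6 arrays were A930005H10Rik, Rab28, Acaca, Igha and Yy1, with Pearson's r from 0.986 to 0.997. Each gene was ranked by its tested probe set of highest r, which need not be its brightest. Acaca encodes acetyl-CoA carboxylase, Igha an immunoglobulin heavy chain and Yy1 a transcription factor. The strain difference enters these r values, and its share beside the order of arrays within a strain was not tested. Rab28, a small GTPase gene on chromosome 5, read 1107, 1080.3 and 1114 in C57B/L6 and 1529, 1611 and 1358 in B.D(Chr5). All 5 had 3 B.D(Chr5) arrays above the C57B/L6 arrays, and 0 of the 5 probe sets passed limma. Among the other synthases, r to Pus7 over the same arrays ran from -0.83 for Trub1 to 0.59 for a probe set of Dkc1, and it was 0.54 for Pus1 and 0.46 for the brighter probe set of Pus7l. Over all tested probe sets the median was -0.0021.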

How the data were processed

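Per the submitters' processing notes, the authors computed signals with MAS5, whose version is not given in the sources used here; deposited is 1 linear intensity per probe set and array. The trimmed mean (2% off each end) was 500 on every array, and 0 pairs of arrays were identical. The 64 control probe sets were left out. Of the other 45037, 34945 had 1 symbol in the platform annotation, 932 several and 9160 none, and 34741 were updated through Entrez identifiers to RefSeq's GRCm38.p6.

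Signals were turned into log2(signal + 16), which understates changes of dim probe sets. The upper 50% by mean log2 signal were tested two-sided in R 4.3.3 with limma 3.58.1 (lmFit, then eBayes with a trend). Strain was the only term, and the threshold was 0.05 after Benjamini-Hochberg adjustment. Intervals are limma's 95% intervals, unadjusted. The brightest probe set stood for a gene, except in the likeness to Pus7, where every tested probe set was ranked. Members were described on every probe set. The code of the fit was checked on simulated data with independent noise for each probe set and array. Effects shared by a whole array were not simulated. Precision is limited by having 3 arrays per strain. Named were all members, the called or else the 2 tested genes of smallest p of each list with up to 2 as examples of level, examples from the marker lists, the nearest neighbours, and the 5 genes most like Pus7. The members and lists were chosen with earlier results of these data known. Alternatives covered pseudocounts, the filter, scaling, the trend, the replicate number, multi-hit probe sets, averaging the probe sets of a gene and each array left out.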

Additional observations from a re-analysis of the deposited data

How the results depend on the processing

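Over 14 other fits, Pus7 stayed higher in B.D(Chr5), with differences from 0.76 to 0.97, and the brightest probe sets of the other 9 genes stayed between -0.20 and 0.23, with 0 of them called in any of these fits. The median over all 10 genes was 0.051. In fits that tested all 10 it ran from -0.0065 without C57B/L6 replicate 3 to 0.062 without C57B/L6 replicate 1. It was 0.0066 without B.D(Chr5) replicate 2. With the upper 25% of probe sets, Rpusd3 was not among those tested, and the median of the remaining genes was 0.072. Of the 10 genes, 1 was called in 8 of the fits, namely Pus7. Its difference chose the group, so this count is a description and no test. In the main fit, 0.223% of all tested genes had a called probe set. The count of called members was 0 with eBayes without trend, 0 with the replicate block, and from 0 to 1 when an array was left out. Without probe sets ending in _x_at or _s_at it was 1. With the mean over all its probe sets, Trub1 had a difference of 0.0009, since its dim probe set went the other way.

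The count of called probe sets over the whole array, 41, was 21 with the upper 25% of probe sets, 67 with arrays centred on their median, 25 without trend and 27 with the replicate block, and ran from 21 to 73 when an array was left out. It was within 1.5 times of 41 in the other fits. Deviations from the strain means of same-numbered arrays correlated at -0.11, -0.20 and 0.20, and only the replicate 3 arrays correlated best with each other across strains. With so few arrays these values cannot decide whether the replicate numbers pair the samples.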
